A study of Homo sapiens with 6 samples.

Results

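The genes described here are 8 transcription factors of the interferon regulatory factor (IRF) and signal transducer and activator of transcription (STAT) families, namely IRF1, IRF2, IRF3, IRF7, IRF9, STAT2, STAT3 and STAT6. They were found by their symbols in gencode release 44 and are 8 of the 60676 genes listed. The set was put together with earlier results of these data known, it leaves out other genes of both families, and its counts and medians describe these 8 genes and not the families. Their mRNA was measured by RNA-seq in HT29 cells, a human colorectal adenocarcinoma line, after 48 h in control medium (untreated), in medium without histidine (Hdepl) or in medium without tryptophan (Wdepl). All 3 groups were wild-type cells and had 2 libraries each, 6 in all. The histidine-free medium was prepared on an RPMI base and the tryptophan-free medium on a DMEM F-12 base, both with dialyzed serum, whereas HT29 cells were otherwise kept in DMEM and the base in which the untreated cells for RNA-seq were kept is not given in the sources used here. For the study's proteomics of the same depletions the control was complete RPMI, and whether it was also used for RNA-seq is not stated. The missing amino acid and the base of its medium therefore cannot be told apart in any difference reported below. The labels number the libraries but do not say that they came from separate cultures, so the p-values measure only the spread between these libraries, which may be technical.

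IRF and STAT proteins carry signals from interferons, cytokines and nucleic acid sensors to the genome. STAT proteins wait in the cytoplasm until Janus kinases bound to a cytokine receptor phosphorylate them, after which they pair, enter the nucleus and bind gamma-activated sites (GAS). STAT2 and IRF9 are parts of ISGF3, the complex that binds interferon-stimulated response elements (ISRE), while IRF3 and IRF7 are switched on by phosphorylation downstream of sensors of foreign nucleic acid. In epithelial cells the same factors set the level of antigen presentation and antiviral genes and respond to interleukin-6 and interleukin-4 family cytokines. The activity of most of them is set by phosphorylation, which RNA-seq does not measure.

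The libraries held between 46.4 and 64.4 M reads. Epithelial markers were present, with reads in all 6 libraries for 12 of 13 genes and KRT8 and KRT18 leading, and their summed normalized count was 449490 and 477530 in untreated, 583540 and 616740 in Hdepl and 643890 and 639830 in Wdepl cells, higher in all depleted libraries. Of 15 leukocyte and mast cell markers, 6 (CD3D, CD2, MS4A1, KIT, CPA3 and TPSAB1) were at 0 in all libraries, and 5, led by CD14, ITGAM and CD79A, had reads in all of them. The list's summed count was between 250 and 274 in the untreated and Hdepl libraries and at 461 and 477 in the Wdepl libraries. The summed count of 6 fibroblast markers, of which COL1A2 was at 0, was 76.5 and 75.6 in untreated, 35.2 and 42.7 in Hdepl and 59.8 and 71.4 in Wdepl cells. That of 5 endothelial markers was 148 and 125, 61.4 and 53.9, and 165 and 161 in the same order, lowest in Hdepl cells for both lists. The part of these differences between the groups in the results below was not tested. The labels name HT29 as the only cell line in every sample. These RNA samples are of whole cultures, in which fewer cells that express a gene and less RNA per cell cannot be told apart. Normalized counts of members are given below with all 6 libraries scaled together, in the order untreated 1 and 2, Hdepl 1 and 2, Wdepl 1 and 2. Fold changes against untreated cells were tested within the deposited table of each depletion, with limma on log2(normalized count + 1), and both tables hold the same untreated libraries, so the comparisons with untreated cells are not independent of each other.

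Promoter sequences from RefSeq (GRCh38.p14, from 250 bases before to 50 bases after the start of a gene) were found for 5 members, IRF1, IRF9, STAT2, STAT3 and STAT6. The promoters of IRF1 and IRF9 are shown because they hold the only matches among these 5 to the 5 motifs searched on both strands. The stretch of IRF1 runs from 250 to 5 bases before the start (chr5:132490778-132491023, minus strand), and that of IRF9 from 73 to 45 bases before the start (chr14:24161192-24161220, plus strand). Capitals mark a GAS match in both and, further downstream in IRF1, a match to the NF-kB motif.
IRF1: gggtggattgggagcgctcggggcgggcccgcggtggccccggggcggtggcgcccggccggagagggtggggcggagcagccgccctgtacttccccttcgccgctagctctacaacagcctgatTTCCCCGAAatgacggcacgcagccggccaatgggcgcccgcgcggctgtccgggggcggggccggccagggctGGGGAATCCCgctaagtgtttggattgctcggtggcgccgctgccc
IRF9: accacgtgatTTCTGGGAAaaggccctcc
The GAS match of IRF1 (TTCCCCGAA, chr5:132490889-132490897) lies 124 to 116 bases before the start, and that of IRF9 (TTCTGGGAA, chr14:24161202-24161210) lies 63 to 55 bases before it. GAS was searched as TTCNNNGAA, which 7.66% of the 35116 RefSeq promoter windows of 300 bases hold. The NF-kB match of IRF1 (GGGGAATCCC, chr5:132490814-132490823) lies 50 to 41 bases before the start, and 5.91% of the windows hold this motif. No match was found in the 5 windows for the core of the ISRE, written as GAAA, any 2 bases and GAAA (3.57% of windows), for the wider GAS form with 4 bases between TTC and GAA (6.44%), or for the composite element TGATGNAA bound by ATF4, the main factor of the amino acid stress response (3.62%). The windows of STAT2, STAT3 and STAT6 held none of the 5 motifs. These matches describe letters in a window and not binding.

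After histidine depletion 5 of the 8 genes were higher than in untreated cells (IRF1, IRF2, IRF7, STAT2 and STAT3) and STAT6 was lower, at an adjusted p under 0.05. IRF1, IRF7 and IRF2 rose more than 3-fold and STAT3 rose 2.65-fold, while STAT2 rose 1.26-fold. Over all 18288 genes tested in this comparison, 39.1% were called higher and 38.2% lower, so a call in itself was common and the size of a change says more. The median log2 fold change was 0.87 over the 8 genes and 0.01 over all genes tested.

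After tryptophan depletion 6 of the 8 genes were higher (IRF1, IRF2, IRF7, IRF9, STAT2 and STAT3) and STAT6 was again lower. IRF7, IRF9 and STAT2 changed most, with 2.40-fold, 2.06-fold and 1.82-fold increases, and IRF1, IRF2 and STAT3 rose by less than 1.5-fold. Here 36.1% of the 17960 genes tested were called higher and 34.8% lower. The median log2 fold change was 0.39 over the 8 genes and 0.01 over all genes tested.

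Set directly against each other, with all 6 libraries in a single fit, the depletions differed at an adjusted p under 0.05 in all 8 members, IRF3 by the smallest amount and with a call that was lost when Hdepl replicate 2 or Wdepl replicate 1 was left out. IRF1, IRF2, IRF3, IRF7 and STAT3 were higher in Hdepl than in Wdepl libraries, and IRF9, STAT2 and STAT6 were lower. Among the 18264 genes tested, 38.7% were called higher and 38% lower in Hdepl libraries. The median difference was 0.36 on the log2 scale over the 8 genes and 0.01 over all genes tested.

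**Figure D1:**
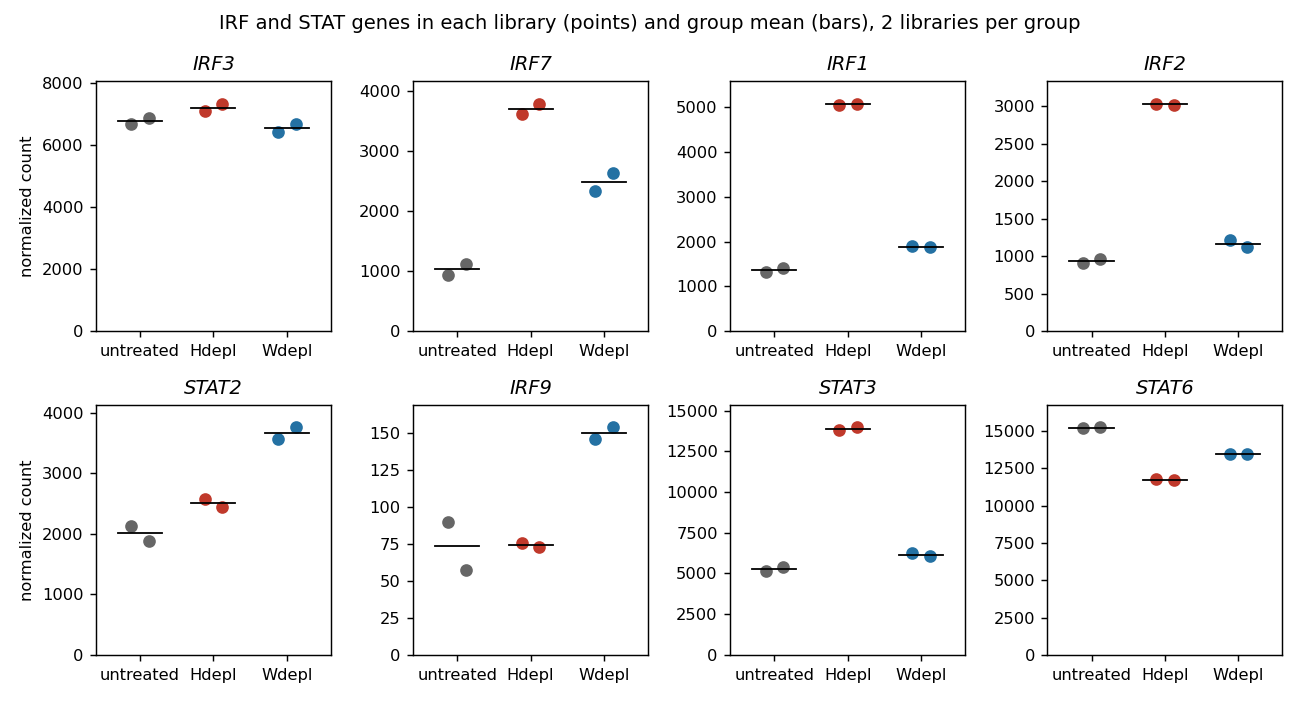
Normalized counts (linear axes from 0, all 6 libraries scaled together) of the 8 genes in untreated, Hdepl and Wdepl cells, with 1 point per library and a bar at the mean of 2 libraries. IRF1, IRF2 and STAT3 stand highest in the Hdepl libraries with the Wdepl libraries near the untreated ones, STAT2 and IRF9 stand highest in the Wdepl libraries, and STAT6 is lowest in the Hdepl libraries.

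**Figure D2:**
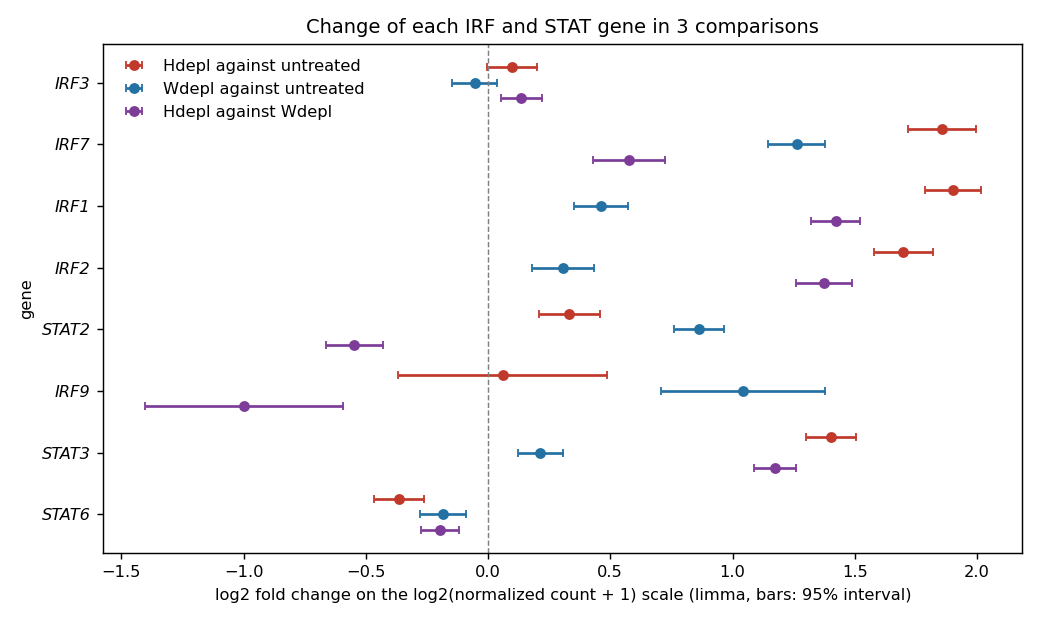
Log2 fold change of each gene on the log2(normalized count + 1) scale in 3 comparisons, with 95% intervals from limma (2 libraries per group) and a dashed line at no change. IRF9 has the widest intervals, and IRF3 lies closest to 0 in all 3 comparisons apart from the value of IRF9 after histidine depletion.

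IRF3 and IRF7 act at the end of the pathways that sense foreign nucleic acid, IRF3 as a factor that is present before any signal and IRF7 as a factor that is itself made in response to interferon. IRF3 (chr19:49659569-49665875, GRCh38) had normalized counts of 6671 and 6877 in untreated cells, 7086 and 7335 in Hdepl cells, and 6421 and 6695 in Wdepl cells. The Hdepl libraries were a little above the untreated ones and the Wdepl libraries overlapped them. The log2 fold change was 0.10 ± 0.05 (SE, adjusted p = 0.0724) in Hdepl cells and -0.05 ± 0.05 (adjusted p = 0.298) in Wdepl cells, and neither was called in these fits. The direction and call of IRF3 depended on the processing. After histidine depletion it was called higher by edgeR on the recovered reads (adjusted p = 0.0252), by limma with a replicate block (adjusted p = 0.041) and by limma without untreated replicate 2 (adjusted p = 0.014), but lower under quantile normalization (log2 -0.12, adjusted p = 0.00568), and over all alternatives its adjusted p reached 0.429. After tryptophan depletion it was called lower under quantile normalization (log2 -0.13, adjusted p = 0.00277). The 95% intervals of -0.00 to 0.20 and of -0.15 to 0.04 bound the changes that these libraries allow. The direct difference between Hdepl and Wdepl cells was 0.14 ± 0.04 (adjusted p = 0.00559), but it was not called under quantile normalization (0.01, adjusted p = 0.797), by limma without trend (adjusted p = 0.0601), without Hdepl replicate 2 (adjusted p = 0.0666) or without Wdepl replicate 1 (adjusted p = 0.107). Of the exonic bases of IRF3, 19.35% lie opposite to exons of BCL2L12, which had between 2067 and 2241 normalized counts in untreated and Hdepl cells and 1154 and 1113 in Wdepl cells. The libraries were made with a stranded kit, and whether strand was used in counting is not given in the sources used here, so the part of BCL2L12 reads in the small IRF3 differences was not tested.

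IRF7 (chr11:612553-615983) had 943 and 1123 normalized counts in untreated cells, 3621 and 3786 in Hdepl cells, and 2342 and 2632 in Wdepl cells. All 4 depleted libraries were more than 2 times above either untreated library, and the Hdepl and Wdepl libraries did not overlap. The increase was 3.62-fold after histidine depletion (log2 1.86 ± 0.07 SE, adjusted p = 8.94e-18) and 2.40-fold after tryptophan depletion (log2 1.26 ± 0.06, adjusted p = 2.35e-44). IRF7 was the only member whose log2 fold change against untreated cells was above 1 in both depletions. Hdepl cells had 1.49-fold more than Wdepl cells (log2 0.58 ± 0.07, adjusted p = 8.1e-07). Within a library, where scaling plays no part, the reads of IRF7 divided by those of IRF3 were 0.141 and 0.163 in untreated, 0.511 and 0.516 in Hdepl and 0.365 and 0.393 in Wdepl cells.

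IRF1 and IRF2 bind nearly the same sites, IRF1 mostly as an activator made in response to interferon-gamma and IRF2 mostly as its antagonist. IRF1 (chr5:132440440-132508719, minus strand) had 1318 and 1413 normalized counts in untreated cells, 5059 and 5082 in Hdepl cells, and 1898 and 1885 in Wdepl cells. The 3 groups did not overlap, and the replicates of either depletion lay close together. Its increase of 3.74-fold after histidine depletion (log2 1.90 ± 0.05 SE, adjusted p = 1.11e-19) overlapped that of IRF7 in its 95% interval (1.79 to 2.02 against 1.72 to 2.00), and 94.2% of the genes tested had a lower log2 fold change than IRF1. After tryptophan depletion IRF1 rose 1.38-fold (log2 0.46 ± 0.06, adjusted p = 4.25e-13). The direct difference was 2.68-fold in favour of Hdepl cells (log2 1.42 ± 0.05, adjusted p = 1.75e-14). The antisense RNA IRF1-AS1 covers 22.87% of the exonic bases of IRF1 on the opposite strand and had between 92.9 and 157.7 normalized counts, which is low beside IRF1 itself.

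IRF2 (chr4:184385702-184474558) followed IRF1 closely, with 914 and 960 normalized counts in untreated cells, 3030 and 3012 in Hdepl cells, and 1213 and 1119 in Wdepl cells. The groups again did not overlap. The increases were 3.24-fold (log2 1.70 ± 0.06 SE, adjusted p = 2.79e-18) and 1.24-fold (log2 0.31 ± 0.06, adjusted p = 7.41e-06), and Hdepl cells had 2.59-fold more than Wdepl cells (log2 1.37 ± 0.05, adjusted p = 1.99e-13). The activator and its antagonist thus rose together. The reads of IRF1 divided by those of IRF2 rose a little, from 1.44 and 1.47 in untreated cells to 1.67 and 1.69 in Hdepl and 1.57 and 1.69 in Wdepl cells. Both depleted groups lay above the untreated one in this ratio without overlap, and they overlapped each other.

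STAT2 and IRF9 are the parts of ISGF3 that are measured here among the members. STAT2 (chr12:56341597-56360203) had 2126 and 1889 normalized counts in untreated cells, 2570 and 2445 in Hdepl cells, and 3570 and 3756 in Wdepl cells. The 3 groups did not overlap and the Wdepl libraries were highest. The increase was 1.26-fold (log2 0.33 ± 0.06 SE, adjusted p = 2.47e-05) after histidine depletion and 1.82-fold (log2 0.86 ± 0.05, adjusted p = 6.99e-34) after tryptophan depletion, and the direct difference was -0.55 ± 0.05 on the log2 scale (adjusted p = 6.93e-08), 1.46-fold less in Hdepl than in Wdepl cells.

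IRF9 (chr14:24161234-24168043, plus strand), the subunit of ISGF3 that recognises DNA, had the fewest reads of the 8 genes, between 58 and 168 per library. Its normalized counts were 89.6 and 57.7 in untreated cells, 75.9 and 73.3 in Hdepl cells, and 146 and 154 in Wdepl cells. The Hdepl libraries lay between the untreated ones, and both Wdepl libraries were above all others. No change was detectable after histidine depletion (log2 0.06 ± 0.21 SE, 95% interval -0.37 to 0.49, adjusted p = 0.801), and without untreated replicate 2 the value turned to -0.25. After tryptophan depletion IRF9 rose 2.06-fold (log2 1.04 ± 0.17, adjusted p = 2.1e-08), and Hdepl cells had 2.00-fold less than Wdepl cells (log2 -0.998 ± 0.19, adjusted p = 0.000144). Of its exonic bases, 23.86% are shared on the same strand with a readthrough gene (ENSG00000259529), which had between 26.6 and 62.1 normalized counts and was lowest in a Wdepl library and highest in a Hdepl library. The treatment of reads that fall in both genes is not given in the sources used here, and their part in the IRF9 values was not tested.

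STAT3 carries signals of the interleukin-6 family through the shared receptor subunit gp130 and is often active in colorectal cancer. STAT3 (chr17:42313324-42388540) had 5148 and 5416 normalized counts in untreated cells, 13808 and 13964 in Hdepl cells, and 6260 and 6054 in Wdepl cells. The Hdepl libraries were far above the other 4, and the Wdepl libraries were just above the untreated ones. The increase was 2.65-fold (log2 1.40 ± 0.05 SE, adjusted p = 5.85e-18) after histidine depletion and 1.16-fold (log2 0.21 ± 0.05, adjusted p = 2.4e-05) after tryptophan depletion, and Hdepl cells had 2.26-fold more than Wdepl cells (log2 1.17 ± 0.04, adjusted p = 2.89e-14). The ratio of STAT2 to STAT3 reads went in opposite directions, from 0.413 and 0.349 in untreated cells down to 0.186 and 0.175 in Hdepl cells and up to 0.570 and 0.620 in Wdepl cells.

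STAT6, the factor of interleukin-4 and interleukin-13, was the only member that fell. STAT6 (chr12:57095408-57132139) had 15184 and 15245 normalized counts in untreated cells, 11761 and 11733 in Hdepl cells, and 13453 and 13445 in Wdepl cells. The 3 groups did not overlap, with the Hdepl libraries lowest. Its level after histidine depletion was 0.777 times that of untreated cells (log2 -0.36 ± 0.05 SE, adjusted p = 3.83e-07), and after tryptophan depletion 0.879 times (log2 -0.19 ± 0.05, adjusted p = 0.000272). The call after tryptophan depletion was lost when either Wdepl library was left out, with log2 values of -0.18 and -0.19. The direct difference was -0.20 ± 0.04 on the log2 scale (adjusted p = 0.000116). The ratio of STAT3 to STAT6 reads was 1.17 and 1.19 in Hdepl cells against 0.339 and 0.355 in untreated and 0.465 and 0.450 in Wdepl cells. These ratios are not corrected for the longer STAT3 transcript, and per kb STAT6 stayed above STAT3 in both Hdepl libraries (2968 and 2961 against 2806 and 2838).

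**Figure D3:**
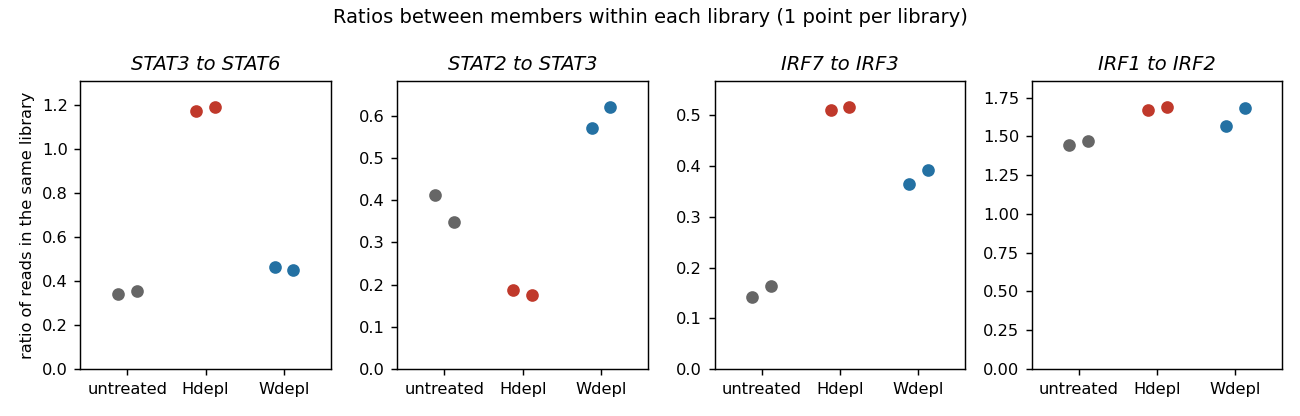
Ratios between the reads of paired genes within each library (linear axes from 0, 1 point per library, 2 libraries per group), which do not depend on scaling between libraries. The STAT3 to STAT6 ratio, not corrected for length, is highest in the Hdepl libraries, and the STAT2 to STAT3 ratio is lowest in the Hdepl and highest in the Wdepl libraries. The IRF1 to IRF2 ratio is a little higher in both depletions than in the untreated libraries and overlaps between the depletions.

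To compare levels between the genes, the normalized counts were divided by the length in kb of the canonical transcript of gencode 44. On this scale IRF3 (4247 per kb, mean of 2 libraries) and STAT6 (3839) led in untreated cells, above 94.1% and 93.4% of the 13181 expressed protein-coding genes, followed by STAT3 (1073). IRF7 (537), STAT2 (456), IRF2 (415) and IRF1 (384) lay near the middle of the expressed genes and IRF9 (45.3) was lowest, above 19.0% of them. No neighbours in this order overlapped, but from IRF7 (490 and 584 per kb in the untreated libraries) through STAT2 (483 and 429) and IRF2 (405 and 425) to IRF1 (371 and 398) the gaps between neighbours were smaller than the spread within a gene. After histidine depletion the order was IRF3 (4521), STAT6 (2964), STAT3 (2822), IRF7 (1926), IRF1 (1427), IRF2 (1339), STAT2 (569) and IRF9 (45.9). STAT2, higher per kb than IRF1 and IRF2 in untreated cells, was thus below both in Hdepl cells and above both in Wdepl cells (832 against 532 and 517). In Wdepl cells IRF7 reached 1293 per kb, close to STAT3 at 1251, and the libraries of these genes overlapped, as did those of IRF1 and IRF2.

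Over the 6 libraries, the pattern of each gene was set beside the others by the Euclidean distance between centred log2 values, a description without a test in which all genes share the same libraries. The closest pairs of members were IRF1 with IRF2 (distance 0.227), IRF2 with STAT3 (0.305), IRF3 with STAT6 (0.482), IRF1 with STAT3 (0.499) and IRF9 with STAT2 (0.558). The most distant pair was IRF1 with IRF9 (2.58). IRF7 had no member closer than IRF1 (0.966). By the same measure over 11007 other protein-coding genes, the nearest to IRF1 were MUL1 and ARF4, to IRF2 DCTN4 and BNIP1, to STAT3 WASHC2A and AEN, and to IRF7 RNF223 and RIOK3. The nearest to STAT2 were PARP6 and CAPN8, to IRF9 GOLGA8B and RAB6C, to IRF3 CHD8 and EBNA1BP2, and to STAT6 UBE2Z and DUS2. Distances to these genes lay between 0.0525 (UBE2Z to STAT6) and 0.320 (RAB6C to IRF9). When likeness was measured by Pearson correlation instead, none of these genes was among the 2 nearest.

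The depleted amino acids are themselves part of these proteins. IRF proteins are known for a cluster of conserved tryptophans in the domain that binds DNA. In the canonical coding sequences of gencode 44, tryptophan made up between 1.53% (STAT6, 13 codons) and 3.28% (IRF3, 14 codons) of the codons, against a median of 1.124% over 19623 protein-coding genes. IRF1 held 9 tryptophan codons (2.77%) and IRF7 12 (2.39%), and all 8 members were above the median. Histidine made up between 1.53% (IRF9) and 2.48% (STAT6) against a median of 2.43%, and STAT6 alone was above it. IRF1 has 5 histidine codons among 325. These shares describe the coding sequences, and protein was not measured in the data used here.

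The other genes of the pathway were taken from fixed lists. Their counts stand beside the shares of all genes tested, 39.1% higher and 38.2% lower after histidine depletion and 36.1% higher and 34.8% lower after tryptophan depletion. IRF5, a factor downstream of Toll-like receptors, fell to 0.426 times its untreated level in Hdepl cells (617 and 597 to 239 and 279, adjusted p = 2.17e-11) and rose 1.58-fold in Wdepl cells (613 and 591 to 1002 and 906, adjusted p = 6.2e-16). The groups did not overlap in either comparison. STAT5A, a factor of growth hormone and interleukin signals, likewise fell to 0.683 times its untreated level in Hdepl cells (541 and 573 to 357 and 404, adjusted p = 5.66e-06) and rose 1.55-fold in Wdepl cells (adjusted p = 2.47e-14). STAT5B had a log2 fold change of 0.10 ± 0.06 SE in Hdepl cells (adjusted p = 0.127) and rose 1.29-fold in Wdepl cells (adjusted p = 1.45e-10). In the direct comparison IRF5, STAT5A and STAT5B were lower in Hdepl than in Wdepl cells, by log2 differences of -1.91, -1.20 and -0.29, whereas the median over the 8 members was 0.36.

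Of 20 ligands, 5 passed the filter on low counts, of which 4 rose and 1 fell after histidine depletion and 2 rose and 1 fell after tryptophan depletion, where 36.1% of all genes tested rose. LIF, a cytokine of the interleukin-6 family, rose 1.85-fold in Hdepl cells (1426 and 1384 to 2624 and 2565, adjusted p = 4.19e-13) and 1.15-fold in Wdepl cells. CLCF1, another of this family, rose 1.31-fold in Hdepl and 1.66-fold in Wdepl cells. IFNE, an interferon of epithelia, fell to 0.523 times its untreated level in Hdepl cells, and its log2 fold change in Wdepl cells was 0.23 (adjusted p = 0.152). Among receptor subunits 6 of 13 rose and 6 fell after histidine depletion, and 8 of 12 rose and 2 fell after tryptophan depletion. In Hdepl cells these shares were close to those of all genes tested (39.1% and 38.2%). IL6ST, which encodes gp130, rose 3.95-fold in Hdepl cells (4247 and 4610 to 18040 and 16908, adjusted p = 3.37e-20) and 1.77-fold in Wdepl cells. IL6R, the receptor of interleukin-6 itself, rose 7.53-fold in Hdepl cells (338 and 333 to 2571 and 2489, adjusted p = 1.79e-21) and 4.04-fold in Wdepl cells (adjusted p = 2.09e-56). IL6ST and IL6R were thus higher in all 4 depleted libraries than in the untreated ones. Of the 6 subunits that fell in Hdepl cells, IL20RA fell to 0.258 times its untreated level (406 and 440 to 95.8 and 123, adjusted p = 7.78e-13). IL22RA1 fell to 0.307 times its untreated level there (4369.5 and 4484.8 to 1249.7 and 1479.1, adjusted p = 1.77e-17). IL11RA, another receptor subunit of the list, rose 2.08-fold in Wdepl cells (127 and 115 to 236 and 272, adjusted p = 6.12e-13). In Hdepl cells IL11RA fell to 0.778 times its untreated level (adjusted p = 0.041), a call that was lost under quantile normalization (adjusted p = 0.051).

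None of the 4 Janus kinases rose after histidine depletion and 2 fell, whereas 3 rose and 1 fell after tryptophan depletion. JAK1 had 6067 and 6594 normalized counts in untreated and 6397 and 6410 in Hdepl cells (log2 0.02 ± 0.05 SE, adjusted p = 0.765), and rose 1.63-fold to 10212 and 10249 in Wdepl cells (adjusted p = 6.24e-30). Under quantile normalization JAK1 was called lower at -0.18 and JAK2 higher at 0.38 in Hdepl cells. JAK2 rose 2.69-fold in Wdepl cells (358 and 335 to 926 and 942), and its log2 fold change in Hdepl cells was 0.17 (adjusted p = 0.107). TYK2, which serves the type I interferon receptor, fell in both, to 0.730 times (adjusted p = 1.16e-07) and 0.756 times (adjusted p = 5.55e-11) its untreated level. The list's median log2 fold change was -0.22 after histidine and 0.82 after tryptophan depletion.

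Among 18 tested sensors, adaptors and kinases upstream of IRF3 and IRF7, 12 rose and 4 fell after histidine depletion (median 0.41) and 11 rose and 4 fell after tryptophan depletion (median 0.22). IFIH1, the sensor MDA5 of long double-stranded RNA, rose 3.45-fold in Hdepl cells (573 and 574 to 1908 and 2061, adjusted p = 1.15e-17) and from 570 and 568 to 1551 and 1887 in Wdepl cells (log2 1.59 ± 0.07 SE, adjusted p = 1.07e-49). TICAM1, the adaptor TRIF of Toll-like receptor 3, rose 3.74-fold in Hdepl and 1.64-fold in Wdepl cells. TBK1, the kinase that phosphorylates IRF3, rose 1.66-fold in Hdepl cells (2148 and 2233 to 3691 and 3581, adjusted p = 5.73e-12), and in Wdepl cells its log2 fold change was 0.08 ± 0.05 (adjusted p = 0.156), called at 0.11 under quantile normalization. Its adaptor TBKBP1 rose 2.62-fold in Wdepl cells from about 62 normalized counts and fell to 0.636 times its untreated level in Hdepl cells.

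Of 21 inhibitors tested after histidine depletion 11 rose and 5 fell (median 0.18), and of 20 tested after tryptophan depletion 10 rose and 6 fell (median 0.04), the latter not far from the 36.1% and 34.8% of all genes tested. SOCS3, the feedback inhibitor of gp130 and a STAT3 target, rose 9.26-fold in Hdepl cells (43.3 and 62.3 to 501 and 478, adjusted p = 1.37e-15) and 2.08-fold in Wdepl cells (43.0 and 61.6 to 107 and 109, adjusted p = 5.14e-07). SOCS2 rose 5.87-fold in Hdepl cells, and its log2 fold change in Wdepl cells was -0.32 (adjusted p = 0.173). PRDM1, a repressor that competes with IRF1 for its sites, rose 4.07-fold in Wdepl cells (53.7 and 62.6 to 241 and 237) and 3.16-fold in Hdepl cells. IRF2BPL rose 2.25-fold in Wdepl cells, and its log2 fold change in Hdepl cells was -0.20 (adjusted p = 0.0558). By edgeR on the recovered reads IRF2BPL was called lower in Hdepl cells at -0.21 (adjusted p = 0.0432).

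**Figure D4:**
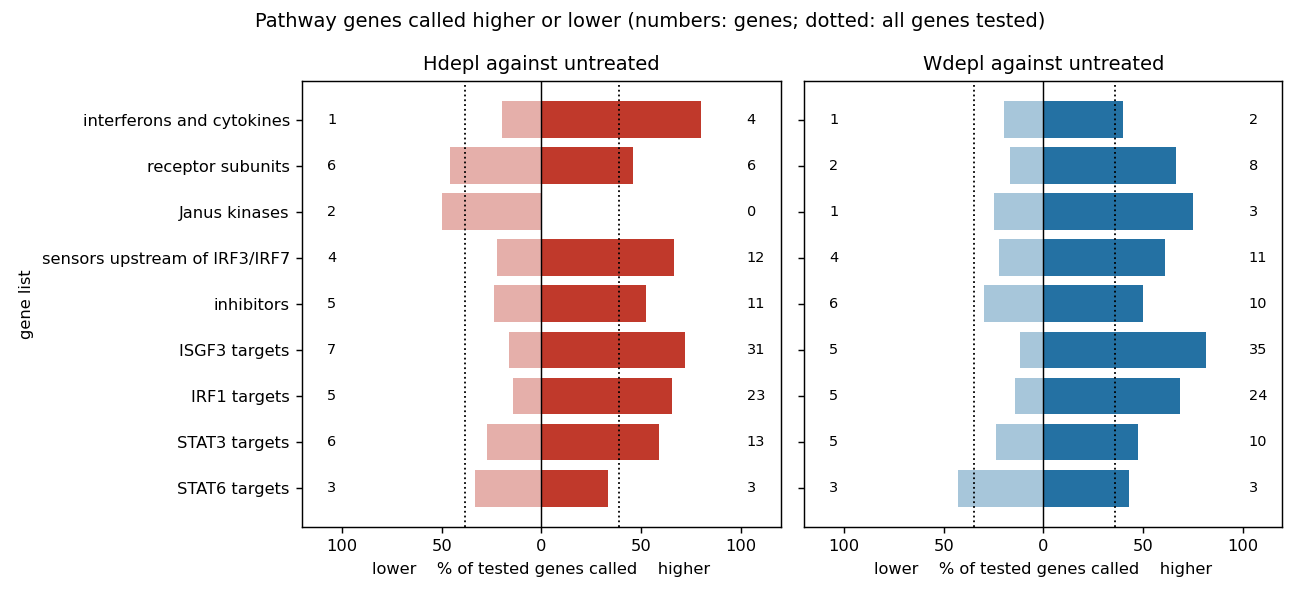
Share of the tested genes of each list called higher (right, dark) or lower (left, pale) after histidine (left panel) and tryptophan (right panel) depletion, in percent, with the number of genes beside each bar and dotted lines at the shares over all genes tested. ISGF3 targets have 31 genes higher after histidine and 35 after tryptophan depletion, and the Janus kinases 0 and 3.

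Target genes of the factors were grouped by the factor best known to act on them, although most respond to more than a single factor. Of 43 ISGF3 targets, 31 rose and 7 fell after histidine depletion (median log2 fold change 0.72) and 35 rose and 5 fell after tryptophan depletion (median 0.98). RSAD2, the antiviral enzyme viperin, rose 10.3-fold in Hdepl cells (56.3 and 61.3 to 622 and 611, adjusted p = 9.08e-18) and 1.80-fold in Wdepl cells, and IFI44L rose 8.47-fold in Hdepl and 14.3-fold in Wdepl cells from 26.4 to 29.2 normalized counts. MX2, an antiviral GTPase, rose 5.43-fold in Wdepl cells (88.1 and 79.2 to 376 and 559) and 2.86-fold in Hdepl cells. IFIT3 rose 1.49-fold in Hdepl cells (adjusted p = 1.81e-07), and in Wdepl cells its log2 fold change was 0.05 ± 0.07 (adjusted p = 0.576), called at 0.18 under quantile normalization. In the direct comparison 18 of these genes were higher and 18 lower in Hdepl than in Wdepl cells, near the 38.7% and 38% of all genes tested.

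Among 35 tested IRF1 and interferon-gamma targets, 23 rose and 5 fell after histidine depletion (median 0.86), and 24 rose and 5 fell after tryptophan depletion (median 0.54). CD274, which encodes the checkpoint ligand PD-L1, rose 74.1-fold in Hdepl cells (36.8 and 31.6 to 2804 and 2413, log2 6.21 ± 0.11 SE, adjusted p = 1.4e-23) and fell to 0.516 times its untreated level in Wdepl cells (36.5 and 31.3 to 14.6 and 19.8, adjusted p = 0.0053). GBP1, a guanylate-binding protein, rose 34.4-fold in Hdepl cells (74.6 and 62.3 to 2371 and 2381, adjusted p = 5.32e-23) and 3.03-fold in Wdepl cells (74.1 and 61.6 to 175 and 246). NLRC5, an activator of MHC class I genes, rose 6.45-fold in Hdepl and 3.18-fold in Wdepl cells. In the direct comparison 21 genes of this list were higher and 9 lower in Hdepl than in Wdepl cells, beside 38.7% and 38% of all genes tested.

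Among STAT3 targets 13 of 22 rose and 6 fell after histidine depletion (median 0.77), and 10 of 21 rose and 5 fell after tryptophan depletion (median 0.06). Besides SOCS3 and IL6ST, the mucin MUC1 fell to 0.166 times its untreated level in Hdepl cells (159 and 171 to 19.9 and 35.5) and to 0.655 times in Wdepl cells. The antibacterial protein LCN2 rose 7.18-fold in Wdepl cells (12210 and 12927 to 90550 and 89871, adjusted p = 1.08e-91) and fell to 0.483 times its untreated level in Hdepl cells. The factor CEBPD rose 3.26-fold in Wdepl cells, and its log2 fold change in Hdepl cells was -0.21 (adjusted p = 0.159). Of the STAT6 targets, 9 were tested after histidine and 7 after tryptophan depletion, and 3 rose and 3 fell in both comparisons (medians -0.31 and -0.02). TGM2, a transglutaminase, rose 1.97-fold in Hdepl and 3.72-fold in Wdepl cells, and the nuclear receptor PPARG fell to 0.567 times in Hdepl and rose 1.34-fold in Wdepl cells. The lists share some genes with each other, and none of them was tested as a group.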

How the data were processed

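Per the labels, polyadenylated RNA of HT29 cells was sequenced with a stranded kit and adapters carrying molecular identifiers. The authors aligned reads with STAR 2.7.10a to GRCh38, counted exonic reads with HTSeq 2.0.5 against gencode 38, and divided the counts by size factors of DESeq2. They deposited the resulting normalized counts (unit: signal) in 2 tables with the same untreated libraries. Use of the identifiers and of strand in counting is not given in the sources used here. Dividing each value by the step of its library gave whole reads (within 0.01 read) for 100% of values in each library, with identical reads of the untreated libraries in both tables. Names, coordinates and transcripts came from gencode 44, in which 60357 of 60676 identifiers were found, and promoters from RefSeq.

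The main test was limma 3.58.1 (trend, two-sided) in R 4.3.3 on log2(normalized count + 1), a scale that understates changes of low genes, for genes whose mean count was at least 10, with Benjamini-Hochberg adjustment over all genes tested and calls at an adjusted p under 0.05. The recovered reads were also tested with DESeq2 1.42.0 and with edgeR 4.0.16 (TMM). Other alternatives were each library left out, a replicate block, quantile normalization, limma without trend, a joint fit of all libraries, a minimum mean of 50 or none, pseudocounts of 0.5 and 8, and a minimum fold change. The code was tested on simulated counts. The members, the lists and the named genes were chosen with earlier results of these data known. Named are all members, per list and depletion up to 2 called genes of largest change with non-overlapping groups, the higher of which averaged 100 or more, the 2 nearest genes of each member, and JAK1, TYK2, TBK1, IL6ST, IFIT3, GBP1 and SOCS3. STAT5A, STAT5B, IL20RA and IL22RA1 are named in addition, after their values were seen. Not every gene or list that was fixed is reported here. No protein sequences were analysed here.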

Additional observations from a re-analysis of the deposited data

How the results depend on the processing

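Of 328 log2 fold changes of members under alternatives, 316 kept their direction and their side of the threshold. IRF3 after histidine depletion turned to -0.12 under quantile normalization and IRF9 to -0.25 without untreated replicate 2 (-0.25 to 0.37 over the fits that leave out 1 library), and the cause was not tested. The other 10 concerned IRF3 in all 3 comparisons and STAT6 after tryptophan depletion without either Wdepl library. Under quantile normalization 2 members were called lower after histidine and 2 after tryptophan depletion, since IRF3 joined STAT6. With a log2 fold change of at least 1 required, 4 members were higher after histidine depletion, 2 after tryptophan depletion and 3 in Hdepl against Wdepl cells, where 16.4%, 10% and 16% of all genes tested were higher, and 0 members were lower, where 16.1%, 10.4% and 15.8% of all genes were lower. Without the filter 19.4% to 22.6% of genes were called higher and 19% to 21.1% were called lower across the comparisons, among more genes tested. Over fits that leave out 1 library, members called higher numbered 5 to 6 after histidine depletion, 6 to 6 after tryptophan depletion and 4 to 5 in the direct comparison, and members called lower 1 to 1, 0 to 1 and 3 to 3. The labels share only replicate numbers. With a replicate block 6 members were higher and 1 lower after histidine depletion, since IRF3 at 0.10 was then called. Deviations of same-numbered libraries correlated at 0.11, -0.02 and -0.05 over 13913 genes, so the numbers were not taken as pairs. Of 120 counts over lists, 117 stayed within 1.5 times of the value given, and 3 moved under quantile normalization. With 2 libraries per group the spread of a single gene is poorly known, and the shared estimate across genes carries the test. By limma without trend the adjusted p after tryptophan depletion was 0.00435 for IRF7, 0.0307 for IRF9 and 0.0411 for STAT3. The main limma fit gave 2.35e-44, 2.1e-08 and 2.4e-05 in the same order. IRF9 is limited by depth, at 58 to 168 reads per library.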
